A study of Mus musculus with 8 samples.

Results

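The cytosolic ribosomal protein genes were examined as chromatin in regenerating mouse liver. Protein-coding genes were taken by symbol, as Rpl or Rps followed by a number together with Rplp0, Rplp1, Rplp2 and Rpsa, and without the Rps6k kinases. This gave 84 of 21938 protein-coding genes, 52 named for the large and 32 for the small ribosomal subunit. Each gene was read through its promoter interval, the strongest deposited ATAC-Seq interval with any base within 1 kb of any of its transcription start sites (TSS). The choice of genes uses symbols and the annotation only, while the interval of each gene was chosen by its strength in these same lists.

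Ribosomal proteins assemble with ribosomal RNA in the nucleolus, and each mature ribosome carries one copy of nearly every one of them, so cells make them in matched amounts. Their genes are housekeeping genes transcribed by RNA polymerase II from short promoters, and their mRNAs typically begin with a run of pyrimidines that couples their translation to mTOR signaling. In liver, ribosome production rises as hepatocytes leave quiescence after partial hepatectomy (PHx), an operation that takes out some of the liver lobes.

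Hepatocytes were isolated by collagenase perfusion from C57BL/6 mice labeled 10-12 weeks old and fed a normal diet, and open chromatin was measured in bulk by ATAC-Seq, in which Tn5 transposase cuts accessible DNA. The groups were undamaged liver without surgery (0 h) and liver at 48, 72 and 96 h after PHx, with 2 libraries each and 8 in all, given here in the order replicate 1, replicate 2. The labels name no transgene or deletion and no sham operation, so surgery and the time after it cannot be told apart. Each library was deposited as its own peak list, with 105206 to 154577 distinct intervals and no read counts, so the depth is unknown. The shortest list was 0 h replicate 2 and the longest was 72 h replicate 2, whose list name also followed another pattern than the other 7. The −log10 p of the interval at rank 50000 ran from 8.05 to 15.2. Of 9 hepatocyte marker promoters, 9 were listed in at least 1 library and 5 in all 8, and Alb, the albumin gene, was listed only in both 0 h libraries and 96 h replicate 1. Of the markers of other liver cells, 0 of 5 for macrophages, 1 of 5 for endothelium, 2 of 4 for stellate cells, 2 of 5 for cholangiocytes and 0 of 3 for lymphocytes were listed in all 8. In at least 1 library, 2 of the macrophage, 3 of the endothelial, 4 of the stellate, 4 of the cholangiocyte and 0 of the lymphocyte markers were listed. Among those listed in all 8, the stellate marker Reln ranked between 2038 and 23627 and the cholangiocyte marker Epcam between 2827 and 29081. The part of other cells in the values below was not tested.

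A promoter interval was listed in all 8 libraries for 81 of the 84 genes, 49 of the large and 32 of the small subunit. Over all protein-coding genes, 13220 (60.3%) were listed in all 8 and 16432 (74.9%) in at least 1. The remaining 3 ribosomal protein genes, Rpl10l, Rpl39l and Rpl3l, were listed in none. Rpl10l and Rpl39l are the testis-expressed autosomal counterparts of the X-linked Rpl10 and Rpl39, and Rpl3l is the striated muscle counterpart of Rpl3. Their X-linked or ubiquitous partners were listed throughout, at median ranks of 40472.5 for Rpl10, 21426 for Rpl39 and 29068.5 for Rpl3, where rank 1 is the interval with the highest −log10 p of a list. The 4 other paralogs with a broad counterpart, Rpl22l1, Rpl7l1, Rpl36al and Rps27l, were listed in all 8 libraries.

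RefSeq promoter sequences (GRCm38.p6) were matched for 64 of the 84 genes. Among the genes that matched were the unlisted paralogs and several promoters on which the comparisons below turn, and 6 of them are shown as the 250 bases before the RefSeq TSS, in the direction of transcription. Capitals mark the motifs searched: CCGGAAG (the ETS factor core), GGGCGG (the GC box), CCAAT (the NF-Y box), TATAAA (the TATA box), AAGATGG (a YY1 core), the palindrome bound by NRF1 and the CGCG palindrome bound by BANP. Each was searched on either strand, and none is contained in another. Rps21 stands for the strongly accessible promoters, Rpl39l and Rpl10l for the unlisted paralogs, Rps4x for low values at 72 h and Rpl10 for low values at 48 h, and Rpl26 for those with the CGCG palindrome, the run in capitals near its end.
Rps21, chr2:180257129-180257378, plus strand: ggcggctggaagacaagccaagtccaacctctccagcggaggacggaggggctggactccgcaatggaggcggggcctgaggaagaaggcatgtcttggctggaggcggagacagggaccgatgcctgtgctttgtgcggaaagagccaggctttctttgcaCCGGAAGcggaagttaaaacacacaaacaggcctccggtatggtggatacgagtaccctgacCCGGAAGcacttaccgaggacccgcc
Rpl39l, chr16:10169978-10170227, plus strand: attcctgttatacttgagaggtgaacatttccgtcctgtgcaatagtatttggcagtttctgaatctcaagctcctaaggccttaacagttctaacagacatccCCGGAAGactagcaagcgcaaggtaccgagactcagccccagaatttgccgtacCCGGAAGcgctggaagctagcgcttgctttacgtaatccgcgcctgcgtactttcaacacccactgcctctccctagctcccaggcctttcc
Rpl10l, chr12:66284402-66284651, minus strand: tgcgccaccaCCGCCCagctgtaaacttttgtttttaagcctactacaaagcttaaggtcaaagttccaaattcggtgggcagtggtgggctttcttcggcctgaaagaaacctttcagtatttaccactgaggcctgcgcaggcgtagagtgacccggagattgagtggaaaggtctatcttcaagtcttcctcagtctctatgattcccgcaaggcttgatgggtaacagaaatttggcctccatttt
Rps4x, chrX:102189392-102189641, minus strand: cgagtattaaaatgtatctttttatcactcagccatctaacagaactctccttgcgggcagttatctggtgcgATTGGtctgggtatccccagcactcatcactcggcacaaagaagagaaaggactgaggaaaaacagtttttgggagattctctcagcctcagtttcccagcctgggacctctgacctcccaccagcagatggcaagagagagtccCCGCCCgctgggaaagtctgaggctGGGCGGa
Rpl10, chrX:74270566-74270815, plus strand: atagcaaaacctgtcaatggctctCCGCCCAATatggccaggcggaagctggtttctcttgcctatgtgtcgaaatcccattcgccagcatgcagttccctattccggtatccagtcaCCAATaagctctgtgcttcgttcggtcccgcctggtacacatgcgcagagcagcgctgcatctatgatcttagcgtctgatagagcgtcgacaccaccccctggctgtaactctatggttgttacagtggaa
Rpl26, chr11:68901316-68901565, plus strand: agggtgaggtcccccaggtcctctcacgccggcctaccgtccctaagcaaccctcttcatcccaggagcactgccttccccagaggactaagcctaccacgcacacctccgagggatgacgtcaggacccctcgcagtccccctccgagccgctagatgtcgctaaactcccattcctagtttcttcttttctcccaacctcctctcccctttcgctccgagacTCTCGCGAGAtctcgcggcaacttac
Both Rps21, with a median rank of 2443, and the unlisted Rpl39l carried CCGGAAG at 2 positions on the coding strand, starting at positions -88 and -26 from the TSS in Rps21 and at -146 and -92 in Rpl39l. The whole of the Rps21 stretch lay inside the promoter interval in 8 of 8 libraries. The Rps4x stretch lay wholly inside it in 1 library and overlapped it in all 8, and the Rpl10 stretch lay inside it in 4 and was not touched by it in the other 4.

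Around the start site itself, 29 of 61 listed genes with a sequence (47.5%) had a run of at least 8 pyrimidines touching the 30 bases centered on the RefSeq TSS, against 16.6% of 10307 listed protein-coding promoters. Some of these windows are shown with the run in capitals, first for genes that had one and then for genes that did not.
Rpl7a, chr2:26910792-26910821, plus strand: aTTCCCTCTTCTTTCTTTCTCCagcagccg
Rpl27a, chr7:109519180-109519209, plus strand: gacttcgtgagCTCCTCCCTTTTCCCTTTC
Rpl15, chr14:18270972-18271001, minus strand: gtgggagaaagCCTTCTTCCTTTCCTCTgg
Rpl28, chr7:4792950-4792979, plus strand: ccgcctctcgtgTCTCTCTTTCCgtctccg
Rpl14, chr9:120571502-120571531, plus strand: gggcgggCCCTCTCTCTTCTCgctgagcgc
Rps9, chr7:3704026-3704055, plus strand: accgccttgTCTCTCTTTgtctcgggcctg
Rpl24, chr16:55966260-55966289, plus strand: agaaagctgttgctaggaaacagactgggc
Rpl9, chr5:65391417-65391446, minus strand: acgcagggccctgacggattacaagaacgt
Rpl10l, chr12:66284387-66284416, minus strand: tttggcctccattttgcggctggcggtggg
The longest run among the ribosomal protein genes, 21 bases, was that of Rpl7a. Genes with and without a run had median ranks of 16822 and 17954.8. CCGGAAG was present between 250 bases before and 50 bases after the TSS in 23 of the 61 (37.7% against 18.0% of all), AAGATGG in 9 (14.8% against 7.12%) and the CGCG palindrome in 5 (8.20% against 1.09%). GGGCGG was present in 39 (63.9% against 67.0%), CCAAT in 20 (32.8% against 37.8%), TATAAA in 6 (9.84% against 6.5%) and the NRF1 palindrome in 1 (1.64% against 2.09%). The GC content had a median of 58.0% against 61.7%, and the ratio of observed to expected CpG was 0.903 against 0.775. These shares describe letters in these windows and carry no test.

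The 81 listed promoters were, as a group, weaker than the whole set of promoters listed in all 8 libraries. Their median ranks over the 8 libraries had a median of 17198.5, against 11955 for all 13220, and 53 of the 81 lay on the weaker side of the latter value. Within the strongest 25% of all listed promoters stood 13 of them (16.0%), and within the weakest 25% stood 31 (38.3%). Small-subunit genes, with a median of 14240.2, were stronger than large-subunit genes, with 22840. The same held in each of the 8 libraries, where the small-subunit median ran from 9164 to 16983 and the large-subunit median from 16046 to 26601. The fold enrichment over local background given in the lists had a median of 9.11 against 10.1 for all. Genes share their libraries and are not replicates, so no test was made of these differences.

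**Figure D1:**
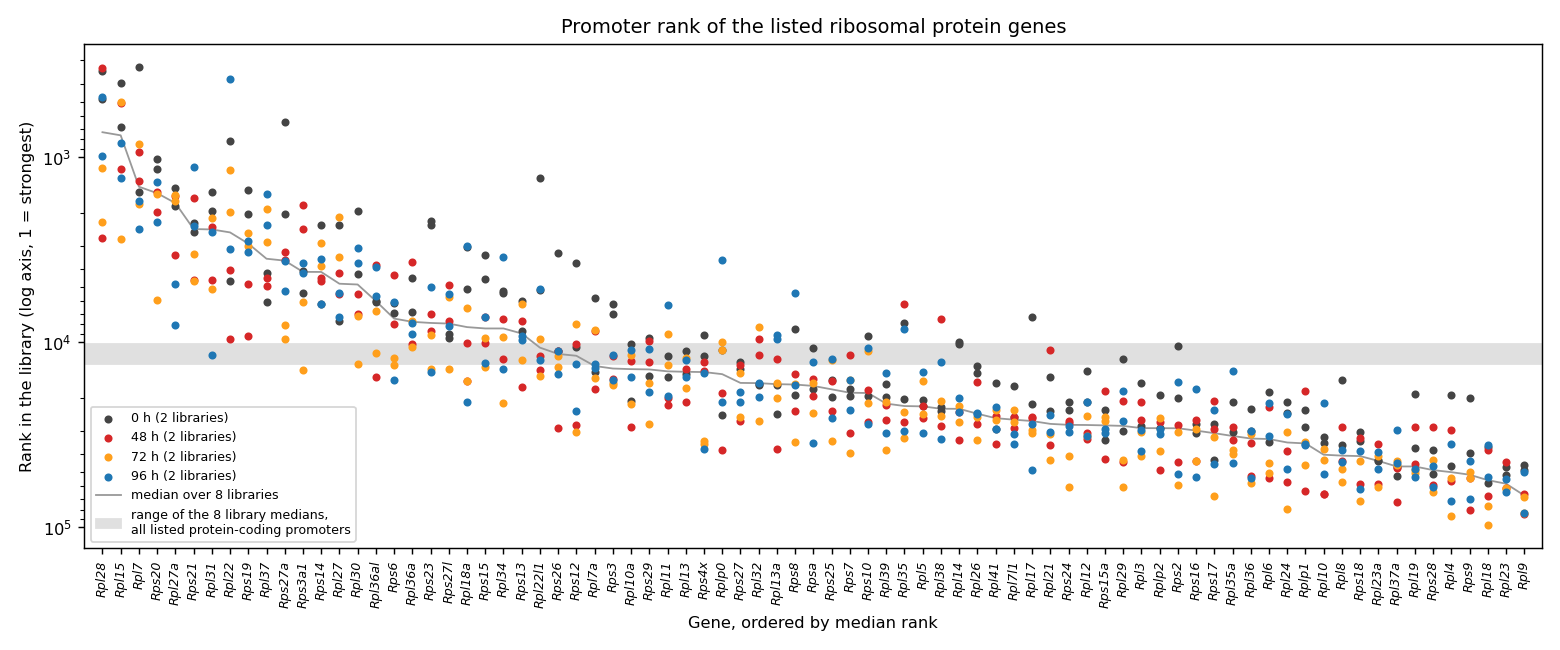
Rank of the promoter interval of 79 of the 81 listed ribosomal protein genes (x axis, ordered by median) in the 8 libraries (points, colored by time after PHx) on an inverted log axis where 1 is the strongest interval. The gray line joins the medians, which run from 732.5 for Rpl28 to 67120 for Rpl9, and the gray band spans the 8 library medians of all listed protein-coding promoters, 10267.5 to 13050.5.

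The strongest promoter was that of Rpl28, a large-subunit protein found in eukaryotes, with ranks of 485 and 341 (0 h), 2737 and 329 (48 h), 1147 and 2232 (72 h) and 980 and 475 (96 h). Rpl15, a core protein of the large subunit, ranked at 687 and 395 (0 h), 1153 and 512 (48 h), 503 and 2767 (72 h) and 1294 and 836 (96 h). Both stayed at rank 2767 or better in every list. Rpl28 was weaker in both 72 h libraries than in either 0 h library, and Rpl15 in both 96 h libraries. Rps20, a protein of the small-subunit head, had a median of 1563.5 with a range of 1019 to 5895, and Rpl27a, a large-subunit protein, one of 1768.5 with a range of 1461 to 8024. Rpl7, with a median of 1443, is a different case. The summit of its interval lay at a median of -1137.5 bp from the Rpl7 TSS, where the neighboring gene Rdh10 starts, and Rpl7 was the 1 gene that dropped out when the summit itself had to lie within 1 kb. The promoter of its paralog Rpl7l1 had a median rank of 26170.

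At the other end stood Rpl9, a protein at the base of the large-subunit stalk, with ranks of 48732 and 46118 (0 h), 84394 and 65799 (48 h), 83842 and 68441 (72 h) and 83045 and 49871 (96 h). Its 6 PHx values were all weaker than both 0 h values, by a small margin at 96 h replicate 2. Rpl23, a protein of the subunit interface, ranked between 44470 and 64346, the narrowest range of these weak promoters relative to its level. Rpl18, Rps9 and Rpl4, the last of which lines the exit tunnel of the nascent chain, had medians of 55533, 51886 and 50272 and spread widely, Rpl18 from 35981 to 97020 and Rpl4 from 19139 to 86946. The ratio of the weakest to the strongest rank of a gene over the 8 libraries had a median of 3.41 over the 81 genes and 3.48 over all promoters. The spread between replicates of a gene (residual SD of log2 normalized fold enrichment) had a median of 0.237 against 0.203.

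By role, the stalk proteins that recruit elongation factors to the large subunit had uneven promoters. Rplp0, the stalk's anchor, had a median rank of 14855.5 with a range of 3580 to 38322, Rplp2 one of 29089.5 and Rplp1 one of 35168.5. The small-subunit proteins Rps3, at the mRNA entry channel, Rps6, the substrate of the S6 kinases, Rps14 and Rps19, both required for small-subunit maturation, had medians of 13849.5, 7441, 4165.5 and 2927.5. Rps19 ranked at 1510 and 2019 (0 h), 9206 and 4827 (48 h), 3031 and 2557 (72 h) and 3269 and 2824 (96 h), with both 0 h values stronger than the other 6 in rank. In normalized fold enrichment, the measure tested below, the order differed: Rps19 had 13.0 and 12.3 (0 h), 9.61 and 11.6 (48 h), 13.8 and 14.7 (72 h) and 13.1 and 13.3 (96 h), with the 72 and 96 h values above both 0 h values. Rpl5 and Rpl11, which bind Mdm2 when free of the ribosome, stood at 22179.5 and 14344, and Rpsa, also known as the laminin receptor precursor, at 17198.5. Rps27a, made as a fusion with ubiquitin, stood at 3619.

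Within the paralog pairs, Rpl22 had ranks of 4657 and 821 (0 h), 4063 and 9602 (48 h), 1178 and 1964 (72 h) and 3131 and 378 (96 h). Rpl22l1, which can stand in for it in the ribosome, had 5210 and 1298 (0 h), 14081 and 11809 (48 h), 9551 and 15245 (72 h) and 12393 and 5137 (96 h). Rpl22l1 was the weaker of the pair in all 8 libraries. Rps27l, by contrast, was stronger than Rps27 in all 8, with 4896 to 13947 against 12733 to 26661. Rpl36al and Rpl36a overlapped, with 3810 to 15390 against 3661 to 10588. The Rpl36al interval also covers the start of the opposite-strand gene Mgat2, 74 bp away.

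The accessible interval sat close to the start site. The summit of the interval lay at a median of -48.5 bp from the nearest TSS of the gene (negative is upstream), with an interquartile range of -111.5 to 29 bp, against -9.5 bp and a range of -98 to 59.5 bp for all promoters. It was upstream for 56 of 81 genes (69.1% against 55.5% of all) and within 200 bp for 69 (85.2% against 73.0%). Intervals were 769.5 bp wide at the median, against 829.5 bp. Another protein-coding TSS lay within 1 kb for 15 genes, on the opposite strand for 14 of these, and 10 genes shared their interval with the same neighbor in all 8 libraries, among them Rpl15 with Nkiras1, Rps27a with Clhc1, Rpl7a with Med22 and Rpl4 with Zwilch. Sharing with another gene in all 8 libraries held for 12.3% of the 81 and 17.1% of all. In 9 genes (11.1% against 12.3% of all), Rpl18, Rpl19, Rpl36, Rpl4, Rpl8, Rpl9, Rps10, Rps18 and Rps9, no base was common to the 8 intervals, so that the strongest interval near the gene was not the same one in every library. Small nucleolar RNA genes, 58 in all, lay inside 30 of the 81 listed genes, whose median rank was 19312.2 against 16564.5 for those without.

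**Figure D2:**
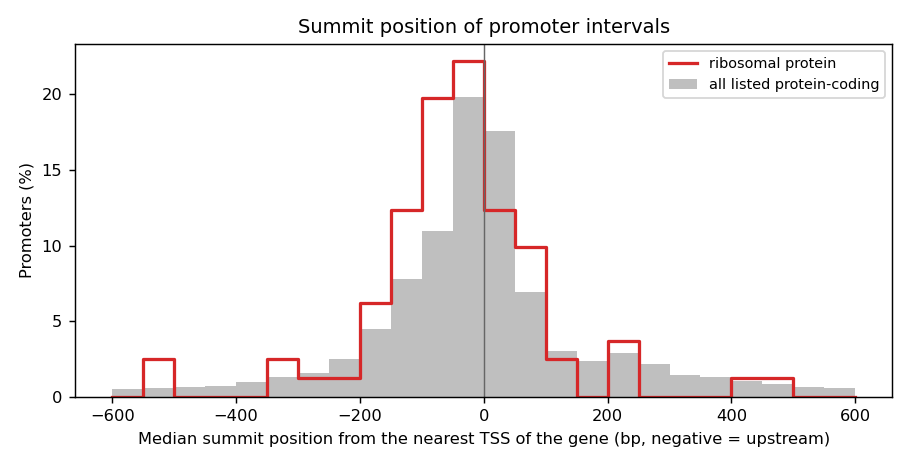
Position of the interval summit relative to the nearest TSS of the gene (x axis, bp, negative upstream, median over the 8 libraries) as a share of promoters (y axis, percent) for the 81 ribosomal protein genes (red line) and all 13220 listed protein-coding promoters (gray bars). The red line lies to the left of the gray bars, with medians of -48.5 and -9.5 bp, and 1 ribosomal protein gene and 970 of all promoters lie beyond the axis.

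The first comparison asked whether these promoters differed between undamaged liver and liver at 48 h, the time the study takes as the height of hepatocyte proliferation. The median rank of the 81 promoters was 16786 and 11785 (0 h) and 18735 and 20834 (48 h). Both 48 h values were weaker than both 0 h values, and the mean difference was 5499 places, against 2029.25 for all promoters. Without 0 h replicate 2, whose list is the shortest, it was 2998.5. As percentiles in the list, where a higher value is stronger, the medians were 84.1 and 85.1 (48 h) against 86.8 and 88.8 (0 h). For all promoters they were 89.1 and 91.1 against 91.4 and 90.2 (0 h). The hepatocyte markers listed in all 8 libraries had a median rank of 36958 and 33579 at 48 h against 29363 and 28772 (0 h). Of their log2 differences 3 of 5 were below 0, and their median percentiles overlapped, at 68.7 and 75.9 against 76.8 and 72.7 (0 h). The hepatocyte markers left out, Alb, Ttr, Apob and Tat, were listed in both 0 h libraries and absent from 48 h replicate 1. Alb and Tat were also absent from 48 h replicate 2. Of the 2 stellate markers, Reln ranked at 5057 and 2038 against 5347 and 23627, the latter in 0 h replicate 2, while the 0 h and 48 h ranks of Lrat overlapped, and both log2 differences were above 0. The 0 h and 48 h ranks of the 2 cholangiocyte markers, Epcam and Sox9, overlapped, with 1 of 2 log2 differences below 0. The part of these markers in the difference was not tested. A promoter open in fewer cells and one less open in each cell cannot be told apart in bulk libraries. Single genes were tested by limma on quantile-normalized log2 fold enrichment over all 13220 promoters, since with 2 libraries against 2 an exact permutation test could not reach a p of 0.05 for any gene. At 48 h 0 of 81 passed a Benjamini-Hochberg adjusted p of 0.05, and 0.0% of all promoters did. Under an unadjusted p of 0.05, 5 were lower (4.73% of all were) and 0 higher (4.63% of all). The log2 difference was below 0 for 58 of 81 genes (50% of all), with a median of -0.11. Without 0 h replicate 2 this median was -0.07, with 52 of 81 below 0.

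**Figure D3:**
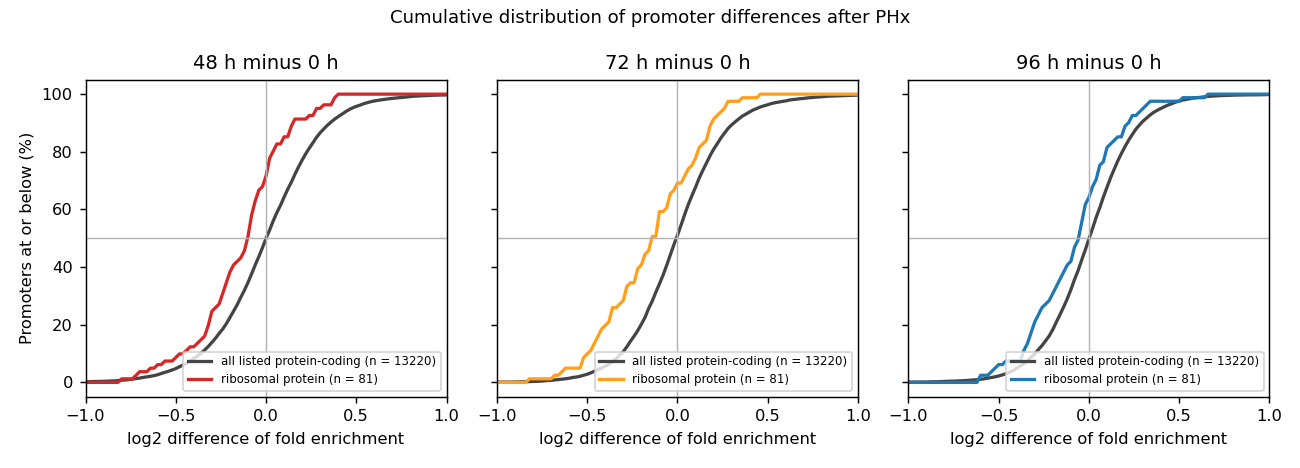
Cumulative share of promoters (y axis, percent) by log2 difference of normalized fold enrichment from 0 h (x axis), at 48, 72 and 96 h, for the 81 ribosomal protein genes (colored) and all 13220 listed protein-coding promoters (gray). The colored curves cross 0 at 58, 56 and 52 of the 81 genes, and the gray curves at 50%, 51.0% and 49.8% of promoters.

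The lowest adjusted p at 48 h belonged to Rpl14, a protein on the surface of the large subunit. Its normalized fold enrichment was 12.5 and 12.6 (0 h), 6.69 and 8.58 (48 h), 9.16 and 8.22 (72 h) and 9.39 and 7.92 (96 h). All 6 PHx values lay below both 0 h values, and the 0 h values were close together. The log2 difference at 48 h was -0.73 ± 0.19 (SE, 2 libraries each, limma adjusted p = 0.389), at 72 h -0.53 and at 96 h -0.54. Its interval was 584 and 553 bp wide at 0 h and 188 and 844 bp at 48 h.

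Rpl10, which joins the large subunit in its last steps of maturation, had 6.73 and 6.39 (0 h), 3.77 and 3.73 (48 h), 7.53 and 5.99 (72 h) and 5.75 and 9.05 (96 h). Only the 48 h pair lay apart from 0 h, at -0.81 ± 0.23 (limma adjusted p = 0.399). Its interval also differed in place: the summit lay at -122 and -136 bp from the TSS at 0 h and at -580 and -510 bp at 48 h. At 48 h the interval did not reach the 250 bases shown above. The upstream place was not particular to 48 h. The summit had a median of -535.5 bp over the 8 libraries, and the interval overlapped those bases in only 4 of 8. Rps26, at the mRNA exit channel, had 13.0 and 17.5 (0 h) and 11.8 and 7.84 (48 h), a difference of -0.65 ± 0.24 (limma adjusted p = 0.456). Rps9, in the body of the small subunit, differed by -0.71, and Rpl24, a large-subunit protein, by -0.61. In Rps9 the groups did not overlap, with 5.95 and 7.79 (0 h) and 4.97 and 3.47 (48 h), but its interval was not the same region in every library.

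Higher values at 48 h were found in Rpl32, with 8.68 and 8.18 (0 h) and 11.0 and 11.0 (48 h) (log2 difference 0.38 ± 0.22, limma adjusted p = 0.633). The 48 h pair lay above the 0 h pair, and 72 h replicate 2, at 7.54, lay below both. Rps27l, a p53-inducible paralog of Rps27, had 10.6 and 11.1 (0 h), 13.6 and 14.3 (48 h), 13.9 and 10.6 (72 h) and 11.4 and 13.9 (96 h), with a 48 h difference of 0.37 ± 0.20 (limma adjusted p = 0.601). Rps3a1, at the mRNA exit region, had 13.4 and 13.2 (0 h) and 15.5 and 16.8 (48 h). Rpl18, whose interval also varied in place, and Rps25 were the other genes among the 5 highest, at 0.37 and 0.31. In ranks, 28 genes (34.6%) were weaker in both 48 h libraries than in either 0 h library, against 29.2% of all, and 3 (3.70%), Rpl32, Rps27l and Rps3a1, were stronger, against 16.3%. In normalized fold enrichment 22 genes (27.2% against 19.8%) lay below and 7 (8.64% against 21.4%) above both 0 h values in both 48 h libraries.

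**Figure D4:**
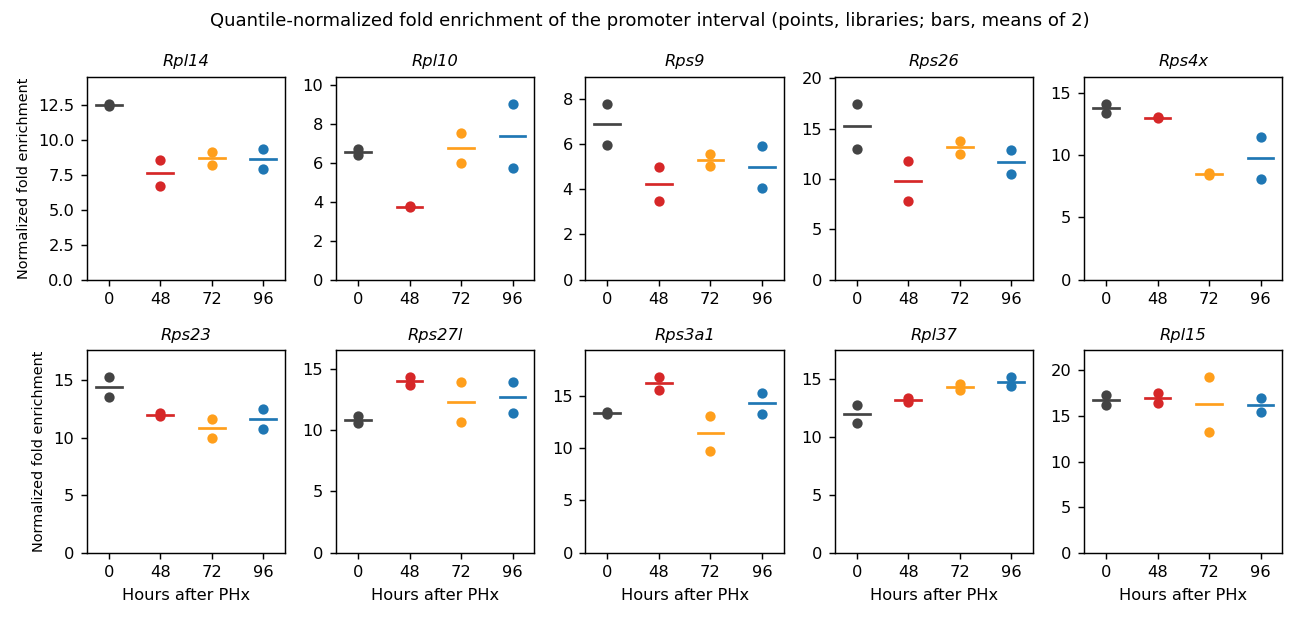
Quantile-normalized fold enrichment of the promoter interval (y axis from 0) by hours after PHx (x axis) for 10 ribosomal protein genes, with points for libraries and bars for the mean of 2. All 6 PHx points of Rpl14, Rps9 and Rps23 lie below both 0 h points, the 72 h points of Rps4x lie at 8.42 and 8.57, and the 6 PHx points of Rpl37 lie above both 0 h points.

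At 72 h the median rank was 20852 and 23889, weaker than in both 0 h libraries by 8085 places on average, against 2337.5 for all promoters. With the percentile in the list in place of the rank, the difference was 3877.88 rank equivalents against -526.478 for all, and without the 9 genes that lack a common interval it was 5054.75 places. In limma 0 of 81 passed (0.0% of all), with 9 lower (2.75% of all) and 1 higher (3.09%) at an unadjusted p under 0.05. The log2 difference was below 0 for 56 of 81 genes (51.0% of all), with a median of -0.14. Without 72 h replicate 2 this median was -0.04, with 44 of 81 below 0, and without 72 h replicate 1 it was -0.20, with 62 below 0. In ranks, 48 genes (59.3%) stood weaker in both 72 h libraries than in either 0 h library, against 32.1% of all, and 2 (2.47%), Rpl37 and Rpl37a, were stronger, against 14.7%. The lists differ in length, and with percentiles 26 genes (32.1%) were weaker, against 17.2% of all, and 8 stronger, against 25.4%. In normalized fold enrichment 28 (34.6% against 20.2%) lay below and 8 (9.88% against 19.9%) above both 0 h values. The hepatocyte markers listed in all 8 libraries also stood weaker at 72 h, with a median rank of 47863 and 50911 against 29363 and 28772 (0 h) and with 5 of 5 log2 differences below 0, while the ranks of the stellate markers Reln and Lrat and the cholangiocyte markers Epcam and Sox9 overlapped with those at 0 h. The part of these in the ribosomal protein values was not tested.

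Rps4x, an X-linked small-subunit protein, stood apart at this time. It had 14.1 and 13.4 (0 h), 13.0 and 13.0 (48 h), 8.42 and 8.57 (72 h) and 8.04 and 11.4 (96 h). The replicates at 72 h were close and far below those at 0 and 48 h, with a difference from 0 h of -0.70 ± 0.20 (limma adjusted p = 0.623). Rpl4 had the lowest difference, -0.83 ± 0.39, but its 0 h values of 6.64 and 10.8 were far apart, its 72 h values were 6.01 and 3.77, and its interval was not the same region in every library. Rpl29 differed by -0.64. Rpl27 was the gene higher at an unadjusted p under 0.05, with 15.2 and 17.0 (0 h) and 19.8 and 24.5 (72 h) (0.45 ± 0.18, limma adjusted p = 0.824), and its 48 and 96 h values, 15.6 to 16.9, lay within the 0 h range. Rpl13a and Rpl37a differed by 0.36 and 0.27.

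At 96 h the median rank was 20986 and 15372, so that replicate 2 lay between the 0 h values. The median percentile in the list was 85.5 and 88.0 against 86.8 and 88.8 (0 h), so that it overlapped too. For all promoters it was 91.3 and 92.0 against 91.4 and 90.2 (0 h). The mean difference from 0 h was 3893.5 places, against 830.5 for all promoters. Leaving out 96 h replicate 1 gave 1086.5, and leaving out 0 h replicate 2 instead gave 1393. In the other direction, leaving out 96 h replicate 2 gave 6700.5. The median rank of the hepatocyte markers was 49890 and 31156 at this time against 29363 and 28772 (0 h), but in log2 differences 2 of 5 were below 0 with a median of 0.07, and as percentiles in the list, where a higher value is stronger, the 96 h medians were 65.5 and 75.6 against 76.8 and 72.7. Reln ranked at 3239 and 4774, stronger than in both 0 h libraries, and the ranks of Lrat, Epcam and Sox9 overlapped with those at 0 h. The part of these markers was not tested. In limma 0 of 81 passed (0.0% of all), with 4 lower (2.24% of all) and 1 higher (2.46%) at an unadjusted p under 0.05. The log2 difference was below 0 for 52 of 81 genes (49.8% of all), with a median of -0.05. This median was -0.03 without 96 h replicate 1 (44 of 81 below 0), -0.11 without 96 h replicate 2 (57 below 0) and -0.11 without 0 h replicate 1 (55 below 0). Rpl17, Rpl19 and Rpl14 had the lowest differences, -0.62, -0.62 and -0.54, where the Rpl19 interval varied in place. Rpl13a, known as a part of an interferon-gated translational silencing complex, had the largest on the positive side, 0.65 ± 0.24 (limma adjusted p = 0.998), with 7.03 and 5.77 (0 h) and 9.83 and 10.2 (96 h). Rpl18 and Rps25 followed at 0.51 and 0.33. In ranks, 33 genes (40.7%) stood weaker in both 96 h libraries than in either 0 h library, against 20% of all. Stronger in both were 6 genes (7.41% against 13.6%), among them Rpl13a, Rpl36al, Rpl37, Rpl37a and Rps27l. With percentiles 21 were weaker (25.9% against 12.4% of all), with lists ordered by fold enrichment 19 (23.5% against 14.7%), and in normalized fold enrichment 20 (24.7% against 15.5%).

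Over the 3 time points together, the mean of the 6 PHx libraries minus that of the 0 h libraries was below 0 for 57 of 81 genes (50.9% of all), with 0 of 81 passing (0.0% of all) and 8 lower (3.29% of all) and 0 higher (3.90%) at an unadjusted p under 0.05. The 3 comparisons share their 0 h libraries and are not independent. In 17 genes (21%) all 6 PHx libraries ranked weaker than both 0 h libraries, against 7.69% of all, and in 0 did all 6 rank stronger, against 4.15%. Among the 17 were Rpl9, Rpl12, Rpl14, Rpl17, Rpl24, Rpl26, Rpl31, Rps3, Rps4x, Rps9, Rps15, Rps19, Rps20, Rps23, Rps24 and Rps27a, which were singled out by their values. The count was 10 (12.3% against 3.78% of all) with percentiles and 8 (9.88% against 4.21%) in normalized fold enrichment, and it was 43 (53.1% against 23.0%) without 0 h replicate 1. The 8 were Rpl9, Rpl14, Rpl17, Rpl26, Rps3, Rps4x, Rps9 and Rps23, and Rpl37 was the 1 gene above both 0 h values in all 6 (1.23% against 5.26%). Rps23, a protein of the decoding site, ranked at 2336 and 2224 (0 h), 8717 and 6995 (48 h), 14015 and 9171 (72 h) and 14461 and 5014 (96 h). Its normalized fold enrichment was 15.3 and 13.6 (0 h) and 10.0 to 12.6 after PHx, with no overlap (limma adjusted p = 0.692 for the PHx mean). Without 0 h replicate 2, the genes lower at an unadjusted p under 0.05 numbered 2, 1 and 0 at 48, 72 and 96 h and 1 for the PHx mean, against 2.11%, 0.961%, 1.06% and 0.969% of all promoters.

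Between PHx time points, 0 of 81 passed in limma at 72 against 48 h, 96 against 48 h or 96 against 72 h (0.0% of all each), as fitted over promoters listed in all 8 libraries. At an unadjusted p under 0.05, 4 were lower (2.44% of all) and 3 higher (2.95%) at 72 against 48 h, 0 lower (3.14%) and 2 higher (3.06%) at 96 against 48 h, and 3 lower (1.95%) and 2 higher (1.79%) at 96 against 72 h. The largest of these differences was that of Rpl10 from 48 to 96 h, 0.94 (limma adjusted p = 0.676).

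Related gene lists placed these values. The 78 mitochondrial ribosomal protein genes, which serve the organelle's own ribosome, were listed in all 8 libraries without exception and had a median rank of 11403.5, stronger than the 17198.5 of the cytosolic genes. Of the 17 translation factor and related genes whose mRNAs also start with a pyrimidine tract, 17 were listed in all 8, with a median of 8159. The 30 ribosome biogenesis genes, the 12 RNA polymerase I genes and the 15 regulators of ribosomal protein synthesis were likewise all listed, at 14367.8, 14556.2 and 12916.5. The cytosolic ribosomal protein median was weaker than that of each of these lists in every library, with the exception of the polymerase I genes at 0 h replicate 2 (12321 against 11785). At an unadjusted p under 0.05 and 48 h, limma gave 6 lower and 1 higher of the mitochondrial genes, 0 and 0 of the translation factors, 4 and 3 of the biogenesis genes, 1 and 0 of the polymerase I genes and 1 and 0 of the regulators, where 4.73% of all promoters were lower and 4.63% higher. At 72 h the counts were 3 and 0, 0 and 1, 1 and 0, 0 and 0, and 0 and 0, against 2.75% and 3.09% of all, and at 96 h 4 and 1 for the mitochondrial genes and 0 and 0 for the rest, against 2.24% and 2.46%. The median log2 difference of the mitochondrial genes was -0.10, -0.04 and -0.09 at 48, 72 and 96 h, against -0.11, -0.14 and -0.05 for the cytosolic genes.

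**Figure D5:**
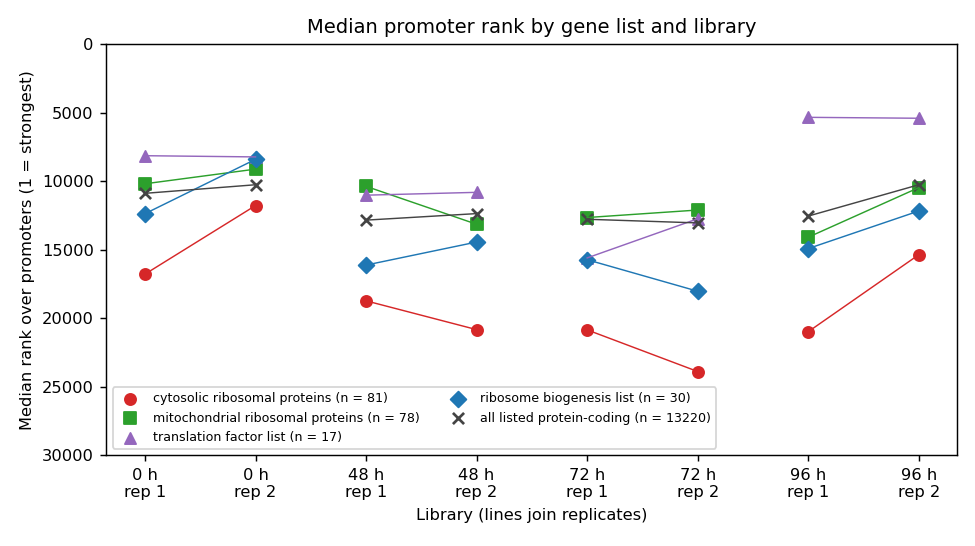
Median promoter rank (y axis, 1 is the strongest and is at the top) in each of the 8 libraries (x axis, lines join the 2 replicates of a time point) for 5 gene lists. The cytosolic ribosomal protein genes lie lowest in every library, from 11785 at 0 h replicate 2 to 23889 at 72 h replicate 2, and the 13220 listed protein-coding promoters lie between 10267.5 and 13050.5.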

How the data were processed

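Bulk ATAC-Seq of isolated mouse hepatocytes was analysed from 8 deposited peak lists, 1 per library, with groups and replicate numbers from the labels. Per the study's methods, the authors trimmed reads, mapped them to mm10 with Bowtie2 removed PCR duplicates and called peaks by MACS2 with the ENCODE pipeline. Each library has a list of its own, and whether any step pooled libraries is not given in the sources used here. The deposited columns used were the authors' fold enrichment (a ratio over local background), −log10 p, −log10 q and summit offset. The list names give a p threshold of 0.01. Depth is unknown, so no count test was run.

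Lines sharing an interval were collapsed to the highest −log10 p and ranked by it. TSS came from GENCODE M21 basic (41525 distinct for protein-coding genes). Log2 fold enrichment of promoters listed in all 8 libraries was quantile normalized, which can understate large increases, and fitted over all 4 time points in limma 3.58.1 (R 4.3.3) with Benjamini-Hochberg adjustment over 13220 promoters; no pseudocount was needed. Python 3.11.15 was used for the rest. Promoter sequences came from the RefSeq table (GRCm38.p6), which matched 64 of the 84 genes. The study describes bulk replicates at 0 and 48 h as biological, from separate hepatocyte preparations and more of them than the 2 libraries analysed here. It gives no number of bulk ATAC-Seq replicates at 72 and 96 h. The labels do not tie a library to an animal, and p-values measure only the spread between these libraries. The genes and lists were chosen with earlier results of these data known. Genes named with values were those not listed in every library, the 5 strongest and 5 weakest by median rank, the 5 lowest and 5 highest differences at 48 h, the 3 and 3 at 72 and 96 h, and a set chosen by role; others were named after their values were seen. Some genes counted in the totals are not reported here by name. Alternatives covered the window, summit, q limit (0.05), ordering, percentile, scaling, measure, filter, variance model, replicate block and leaving out each library.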

Additional observations from a re-analysis of the deposited data

Results flagged for a closer look

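In Rps3a1 and Rpl36al both libraries of one PHx time point ranked weaker than both 0 h libraries while both libraries of another ranked stronger. Rps3a1 had a mean rank of 4768.5 at 0 h, 2121.5 at 48 h and 10121 at 72 h. Rpl36al, whose interval also covers the start of Mgat2, had 5982 (0 h), 9117.5 (72 h) and 4753 (96 h). For Rpl36al, the 72 h order holds in rank only, since its normalized fold enrichment was 9.42 and 9.93 at 0 h and 10.7 and 9.40 at 72 h. These differences between time points were picked out by their order. In limma the difference from 48 to 72 h was -0.52 in Rps3a1 (adjusted p = 0.882) and that from 72 to 96 h was 0.17 in Rpl36al (adjusted p = 0.9995), and neither gene passed at any time point, where 0.0% of all promoters did.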

How the results depend on the processing

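The limma counts of ribosomal protein genes past the threshold stayed at 0 under every alternative run. Over all promoters there were calls under some: with an interval required in at least 1 list, 38, 29, 32 and 41 of 16432 at 48, 72 and 96 h and for the PHx mean, with median centring 3 for the PHx mean, and without a 48 h library at most 1 per comparison. The replicate numbers did not pair the libraries, with correlations of deviations of -0.109 to 0.165 between same-numbered libraries. With a replicate block 0 genes passed, and 7, 9 and 4 were lower at an unadjusted p under 0.05 at 48, 72 and 96 h, against 4.68%, 2.58% and 2.05% of all promoters. By the same limit on −log10 p in place of fold enrichment, 14 were lower at 72 h and 13 for the PHx mean (3.34% and 3.26% of all). There 63 and 64 of 81 genes lay below 0, against 6923 and 6997 of 13220 promoters. When an interval was required in at least 1 list, 7 and 4 were lower (2.29% and 2.51% of all). The 81 listed genes stayed 81 with a window of 500 bp or a q limit of 0.05, and were 80 with the summit rule. With the percentile in place of the rank, the 72 h median difference was 3877.88 rank equivalents (all promoters -526.478), with 26 genes weaker and 8 stronger at 72 h and 21 weaker at 96 h. With lists ordered by fold enrichment, 6 were stronger at 48 h, 7 stronger at 72 h and 19 weaker at 96 h, and in all 6 PHx libraries 7 were weaker and 1 stronger, against 10 weaker with percentiles. With normalized fold enrichment in place of the rank, chosen after seeing the data, 7 were stronger at 48 h, 28 weaker and 8 stronger at 72 h, 20 weaker at 96 h, and 8 weaker and 1 stronger in all 6. The cause was not tested.

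Leaving out 1 library at a time, the median rank difference ran from 2998.5 to 7999.5 at 48 h, from 5584.5 to 10585.5 at 72 h and from 1086.5 to 6700.5 at 96 h. The genes weaker at 48 h ran from 28 to 53 and stronger from 3 to 13, at 72 h from 48 to 66 and from 2 to 9, and at 96 h from 33 to 53 and from 6 to 22, and in all 6 PHx libraries from 17 to 43 and from 0 to 2. Of all promoters, 29.1% to 47.4% were then weaker at 48 h and 16.3% to 31.0% stronger, 32.1% to 48.6% and 14.7% to 27.8% at 72 h, 19.9% to 45.5% and 13.6% to 35.5% at 96 h, and 8.75% to 23.0% and 4.84% to 13.1% in all 6; a smaller group makes such a separation easier to meet. The listed genes stayed at 81 and the limma calls at 0. Without 0 h replicate 2, 9, 9 and 18 genes were stronger at 48, 72 and 96 h, against 26.8%, 25.1% and 25.7% of all.

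In an alternative chosen after seeing the data, leaving out the 9 genes without a common interval gave a 72 h difference of 5054.75. Leaving out the 10 that share their interval with a neighbor, also chosen then, gave 5803.5, 8064 and 4077.5 at 48, 72 and 96 h. Of 1869 alternative values for single named genes, 86 changed sign, all of them called in neither fit. The lists give no depth, so a gene absent from a list is absent at the threshold of the authors.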

Other observations

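Ribosomal protein genes have left many processed copies in the genome. By symbol, as a ribosomal protein name ending in -ps with or without a number, 294 annotated pseudogenes were taken. Of them, 263 lay over 5 kb from a protein-coding TSS. Processed copies annotated under other symbols were not among these and count with the other processed pseudogenes below. Of these 263, between 5.32% (48 h replicate 1) and 11.4% (72 h replicate 2) had an interval within 1 kb in a given library, against 6.13% to 8.98% of 9168 other processed pseudogenes at the same distance. The share was above that of the other pseudogenes in 6 of 8 libraries, with no test. In all 8 libraries 10 of the 263 were listed and in none 216. The strongest of the 10 were Rpl5-ps2 (chromosome 2, 154703809 to 154704699), with ranks of 6965 to 21289, and Rpl15-ps1 (chromosome 11, 21953140 to 21953703), with 9383 to 29651. Reads from a processed copy and its parent can be alike, so these intervals are uncertain.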
